A study of Homo sapiens with 9 samples.

Results

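The respiratory chain is built from subunits of 2 genomes. Mitochondrial DNA encodes a small hydrophobic core of complexes I, III, IV and V, and nuclear genes encode every other subunit, complex II included. Mitochondrial genes are copied as long polycistronic transcripts from each strand of the circular genome and then cut apart, whereas each nuclear gene has its own promoter. In hepatocytes the chain oxidises NADH and FADH2 from fatty acid oxidation and the tricarboxylic acid cycle. The members described here were 103 of the 19317 genes measured, taken by symbol: 13 mitochondrially encoded genes and 90 nuclear genes. By complex these were 46 genes of complex I (7 of them mitochondrial), 4 of complex II, 11 of complex III (1 mitochondrial), 21 of complex IV (3 mitochondrial) and 21 of complex V (2 mitochondrial). NDUFA4 was counted with complex IV, where its protein is found, whereas its relative NDUFA4L2 was left with complex I by symbol. Assembly factors were not members, except that COX7A2L, which joins complexes III and IV, was counted with complex IV by symbol.

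All samples were HepG2, a single established cell line from a hepatocellular carcinoma with WT genotype per the labels, so the cells model tumour-derived and not primary hepatocytes. DNL, a model of de novo lipogenesis (3 samples), spent 1 week in DMEM that held insulin at 10 µg/ml and the liver X receptor agonist T0901317 at 10 µM. OA (3 samples) was kept for 6 hours in DMEM with 25 µM oleic acid carried in 11% albumin. WT (3 samples), the untreated control, was kept in RPMI, and every medium held 10% serum and 1% antibiotics. No carrier-only control was part of the design. DNL and OA share the base medium but differ in both agent and duration, and each also differs from WT in base medium. These effects cannot be told apart.

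Deposited estimated counts totalled 16447398 to 36147431 in the DNL libraries, 7836520 to 28636903 in the OA libraries and 26425694 to 43043347 in the WT libraries. Hepatocyte transcripts (9 of 9 markers found, APOB the highest) summed to 74213 to 76279 TMM-scaled CPM in DNL, 13207 to 15242 CPM in OA and 41055 to 42667 CPM in WT. Of 5 fibroblast and stellate markers, the sum was 89.2 to 90.7 CPM in DNL, 90.4 to 969 CPM in OA and 69.6 to 74.7 CPM in WT. COL1A1, a gene of the fibroblast and stellate list, had 19.3, 85 and 537 CPM in OA replicates 1, 2 and 3, against at most 0.990 CPM in any DNL or WT library, and COL1A2 was at 0 outside OA. OA replicate 3 therefore stood apart from its group, and counts of OA calls are given below with it and, where they differ, without it. OA replicates 1 and 2 also lay above every DNL and WT library for both genes. Leaving out replicate 3 thus lowers these transcripts in OA but does not remove them. The 4 leukocyte and macrophage markers summed to 1613 to 1704 CPM in DNL, 1057 to 1092 CPM in OA and 976 to 987 CPM in WT, nearly all of it LYZ, with CD163 at 0 in every library. The 4 endothelial markers summed to 5.27 to 6.92 CPM in DNL, 0.923 to 2.14 CPM in OA and 1.52 to 1.96 CPM in WT. The part of these transcripts in the results was not tested. In bulk RNA, fewer cells of a type and less RNA per cell cannot be told apart, and neither can fewer copies of mitochondrial DNA and less RNA per copy.

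Mitochondrially encoded transcripts were by far the larger share of the chain’s counts. The 13 genes took 6.65%, 5.86% and 5.28% of all counts in the DNL libraries, 3.58%, 3.39% and 3.20% in OA and 3.55%, 3.18% and 2.92% in WT. The DNL libraries lay above all others, while OA and WT overlapped. The 90 nuclear genes took 0.421% ± 0.000645 of all DNL counts, 0.384% ± 0.0103 of OA counts and 0.428% ± 0.0126 of WT counts (SD, n = 3 each). Here OA lay below the other groups and DNL and WT overlapped.

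The ratio of mitochondrial to nuclear respiratory counts was 15.8, 13.9 and 12.5 in the DNL libraries, 9.06, 8.88 and 8.53 in OA and 8.12, 7.69 and 6.76 in WT. No 2 groups overlapped. On the log2 scale DNL exceeded WT by 0.90, OA exceeded WT by 0.23 and DNL exceeded OA by 0.67, each with a two-sided exact permutation p of 0.1 (n = 3 each), the smallest that 3 against 3 allows. The sums weigh abundant genes most. Without MT-CO1, the first subunit of cytochrome c oxidase, the difference was 0.06 for OA against WT, with overlapping groups, and 0.70 for DNL against WT. With the median over members in place of the sums, it was 0.47 for DNL against WT and 0.23 for OA against WT (two-sided exact permutation p = 0.1 for both). For DNL against OA it was 0.24, with a two-sided exact permutation p of 0.4 and groups that overlapped.

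**Figure D1:**
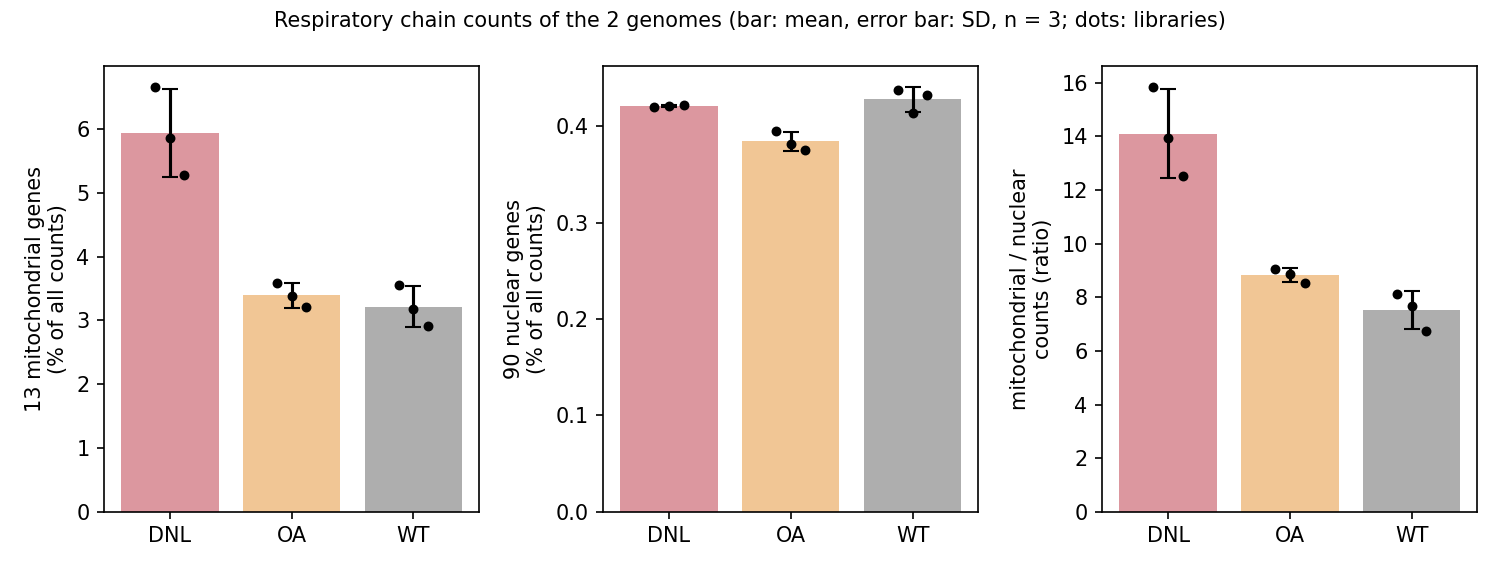
Share of all counts (percent) in the 13 mitochondrial and 90 nuclear genes, and the ratio of the 2 sums, for DNL, OA and WT. Bars are means, error bars SDs (n = 3) and dots libraries; the mitochondrial share averaged 5.93% in DNL, 3.39% in OA and 3.22% in WT, whereas the nuclear share was 0.421% for DNL, 0.384% for OA and 0.428% for WT.

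The balance of the 2 genomes differed between complexes. In complex IV the log2 ratio of mitochondrial to nuclear counts was 5.96 ± 0.104 for DNL, 5.13 ± 0.0408 for OA and 4.98 ± 0.0972 for WT (SD, n = 3), a difference of 0.98 for DNL against WT. In complex V it was 0.75 ± 0.455 in DNL, -0.36 ± 0.209 in OA and -0.18 ± 0.245 in WT, so DNL again lay above WT, by 0.93, and OA overlapped WT. In complex I the difference was 0.59 for DNL against WT and 0.06 for OA against WT, the second with overlapping groups. In complex III, which has MT-CYB as its only mitochondrial gene, it was 0.62 for DNL and 0.63 for OA, both without overlap with WT. Every non-overlapping difference here had a two-sided exact permutation p of 0.1 (n = 3 each).

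The first comparison asked how the genes of each genome differed between DNL and WT. It used edgeR's quasi-likelihood test over 13636 genes, with a call at a Benjamini-Hochberg adjusted p under 0.05. DNL against WT called 53.8% of all genes, OA against WT 60.0% and DNL against OA 62.8%. Of the 13 mitochondrial genes, all of which were tested, 10 rose and 1 fell in DNL against WT, beside 27.1% and 26.8% of all genes tested. Their median log2 fold change was 1.02, against -0.02 over all genes. In OA against WT, 1 of 13 rose and 1 fell, beside 30.4% and 29.7% of all genes, with a median of -0.22 against -0.03 over all genes. In DNL against OA, 10 rose and 1 fell, beside 31.9% and 30.9%, with a median of 1.10 against 0.01. The OA counts of 1 and 1, and the 10 and 1 of DNL against OA, were the same without OA replicate 3. With a block for replicate number, 2 rose and 6 fell in OA against WT. Without WT replicate 2 or 3 the genes higher in DNL against WT numbered 6. Genes of the same strand are cut from shared transcripts, so the calls of the 13 genes are not independent of each other.

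MT-CO1, the catalytic subunit of cytochrome c oxidase (chrM:5904-7445, GRCh38), was the most abundant member. It had 34695, 32610 and 32429 CPM in the DNL libraries, 16173, 16053 and 15777 CPM in OA and 14499, 14192 and 12880 CPM in WT. All DNL libraries lay above all OA libraries, and these above all WT libraries. The log2 fold change was 1.26 ± 0.05 (SE; edgeR adjusted p = 2.86e-10) in DNL against WT, 0.21 ± 0.05 (edgeR adjusted p = 0.00194) in OA against WT and 1.05 ± 0.05 (edgeR adjusted p = 6.98e-10) in DNL against OA.

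MT-CO2, which carries the copper centre that takes electrons from cytochrome c, had 7283, 5861 and 4609 CPM in DNL, 2279, 2222 and 1802 CPM in OA and 2978, 2218 and 2030 CPM in WT. MT-CO3, the third core subunit of the oxidase, had 5937, 5332 and 4408 CPM in DNL, 2720, 2611 and 2380 CPM in OA and 3503, 2856 and 2638 CPM in WT. For both genes DNL lay above the other groups and OA and WT overlapped. MT-CO2 rose by 1.30 ± 0.22 (log2, SE; edgeR adjusted p = 0.00229) and MT-CO3 by 0.80 ± 0.14 (edgeR adjusted p = 0.00167) in DNL against WT.

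MT-CYB, the cytochrome b of complex III, had 3508, 3117 and 2463 CPM in DNL, 2157, 1984 and 1777 CPM in OA and 1843, 1580 and 1490 CPM in WT. DNL lay above the other groups, whereas OA and WT overlapped. It rose by 0.89 ± 0.15 on the log2 scale in DNL against WT (SE; edgeR adjusted p = 0.00137), and the difference of 0.27 ± 0.14 in OA against WT did not pass (edgeR adjusted p = 0.150).

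The complex I genes, which encode parts of the proton-pumping membrane arm, split into 3 behaviours. MT-ND4 had 6972, 5546 and 4466 CPM in DNL, 2850, 2665 and 2388 CPM in OA and 3079, 2562 and 2319 CPM in WT, with a log2 fold change of 1.09 ± 0.18 in DNL against WT (SE; edgeR adjusted p = 0.00189). MT-ND4L, which shares a transcript with MT-ND4, changed by 1.08 ± 0.18 (edgeR adjusted p = 0.00170). For both, DNL lay above OA and WT, which overlapped.

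MT-ND3 and MT-ND5 also passed in DNL against WT, at log2 fold changes of 0.89 ± 0.26 and 1.05 ± 0.27 (SE; edgeR adjusted p = 0.0245 and 0.0152). Their calls were lost without WT replicate 2 or 3, at edgeR adjusted p-values of 0.0778 and 0.0791 for MT-ND3 and 0.0524 and 0.0545 for MT-ND5. The MT-ND3 call was also lost without DNL replicate 1 (edgeR adjusted p = 0.0581) or 2 (edgeR adjusted p = 0.0584).

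MT-ND1 and MT-ND2, the first protein genes of the heavy-strand transcript, did not pass in any comparison with all libraries. MT-ND1 had 2688, 2118 and 1576 CPM in DNL, 1871, 1744 and 1553 CPM in OA and 2772, 2340 and 2105 CPM in WT. MT-ND2 had 2891, 2141 and 1705 CPM in DNL, 1817, 1713 and 1562 CPM in OA and 1933, 1614 and 1448 CPM in WT. DNL and WT overlapped for both genes. Their log2 differences in DNL against WT were -0.18 ± 0.20 and 0.43 ± 0.20 (SE; edgeR adjusted p = 0.502 and 0.119). Without DNL replicate 3, MT-ND2 passed in DNL against WT at an edgeR adjusted p of 0.0263 and in DNL against OA at 0.0255, and MT-ND1 in DNL against OA at 0.0317 and in OA against WT at 0.0209. Without DNL replicate 1, MT-ND1 passed in OA against WT (edgeR adjusted p = 0.0313).

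Taken as shares of the 13 genes' counts, MT-ND1 made up 3.23% ± 0.443 for DNL, 5.44% ± 0.219 for OA and 7.62% ± 0.219 for WT (SD, n = 3). No groups overlapped. MT-ND2 made up 3.41% ± 0.466 in DNL, 5.36% ± 0.122 in OA and 5.27% ± 0.190 in WT, so DNL lay below the other groups, which overlapped. MT-CO1 made up 51.5% ± 4.94 in DNL, 50.7% ± 2.09 in OA and 44.2% ± 2.60 in WT, with WT below the other groups. Each of these non-overlapping differences had a two-sided exact permutation p of 0.1 (n = 3 each).

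MT-ND6 was the only mitochondrial gene called lower in DNL, against WT and against OA. It is the only protein gene on the other strand of the mitochondrial genome, and it had 89.4, 92.6 and 72.2 CPM in DNL, 154, 152 and 145 CPM in OA and 187, 186 and 184 CPM in WT. The 3 groups did not overlap, with DNL lowest and WT highest. The log2 fold change was -1.14 ± 0.08 in DNL against WT (SE; edgeR adjusted p = 9.05e-08), -0.31 ± 0.07 in OA against WT (edgeR adjusted p = 0.00343) and -0.83 ± 0.08 in DNL against OA (edgeR adjusted p = 1.06e-06).

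Its share of the 13 genes' counts was 0.121%, 0.144% and 0.126% in the DNL libraries, 0.464%, 0.476% and 0.485% in OA and 0.531%, 0.600% and 0.653% in WT. The log2 ratio of MT-ND6 to the 12 other genes was lower by 2.19 in DNL than in WT, with a two-sided exact permutation p of 0.1 (n = 3 each). The strand is visible in the base composition of the reading frames. The first 90 bases of MT-ND6, read 5′ to 3′ from its own strand at chrM:14584-14673, and those of its neighbour MT-ND5 at chrM:12337-12426 are shown because the 2 genes abut end to end and moved in opposite directions in DNL; capitals mark G.
MT-ND6: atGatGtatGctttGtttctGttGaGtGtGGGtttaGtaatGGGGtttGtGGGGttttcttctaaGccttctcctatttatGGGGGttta
MT-ND5: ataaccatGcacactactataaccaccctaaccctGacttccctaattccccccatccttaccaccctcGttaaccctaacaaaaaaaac
These windows, from GENCODE 29 on GRCh38, held 27 G and 9 C in MT-ND6 and 3 G and 37 C in MT-ND5. The libraries were made with a stranded kit, but the strand setting of the estimator is not given in the sources used here. Sense and antisense reads over MT-ND6 can then not be told apart.

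MT-ATP6 and MT-ATP8, the membrane subunits of ATP synthase, overlap on a shared messenger RNA. Their shared stretch is shown because counts in it fit either gene: it spans chrM:8527-8572 on the plus strand, 22.2% of MT-ATP8, and capitals mark the start codon of MT-ATP6 and the stop codon of MT-ATP8.
MT-ATP8 and MT-ATP6: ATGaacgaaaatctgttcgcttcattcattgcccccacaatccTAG
MT-ATP6 had 3540, 2566 and 1875 CPM in DNL, 1141, 931 and 796 CPM in OA and 1550, 1199 and 1065 CPM in WT. MT-ATP8 had 456, 274 and 224 CPM in DNL, 89.9, 113 and 91.6 CPM in OA and 187, 152 and 131 CPM in WT. For both, DNL lay above the other groups, and for MT-ATP8 OA lay below WT. They rose by 1.06 ± 0.28 and 1.02 ± 0.29 on the log2 scale in DNL against WT (SE; edgeR adjusted p = 0.0168 and 0.0229). Without WT replicate 2 or 3 the calls were lost, at edgeR adjusted p-values of 0.0579 and 0.0592 for MT-ATP6 and 0.0692 and 0.0757 for MT-ATP8.

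Per kilobase of gene, MT-CO1 led in every group, at 21559 CPM in DNL, 10377 CPM in OA and 8986 CPM in WT. MT-ND6 was last at 161 CPM per kilobase in DNL, 286 in OA and 354 in WT. MT-ND1 ranked above MT-ND4 in WT, at 2516 against 1925 CPM per kilobase, and below it in DNL, at 2225 against 4108. These levels are a description of the group means.

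**Figure D2:**
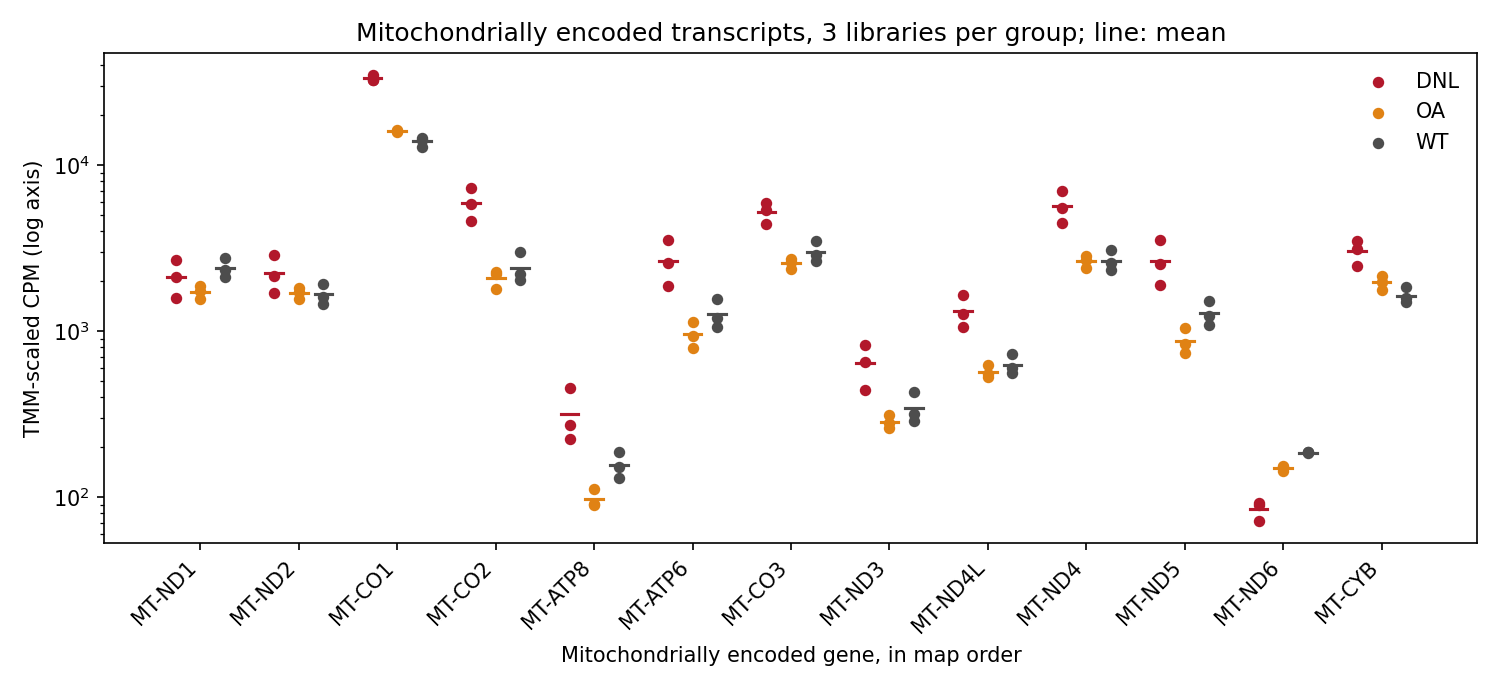
TMM-scaled CPM (log axis) of the 13 mitochondrially encoded genes in map order, for DNL, OA and WT. Dots are libraries and lines means of 3; MT-CO1 stands highest in every group, and MT-ND6 is the only gene whose DNL libraries (72.2 to 92.6 CPM) lie below all others.

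**Figure D3:**
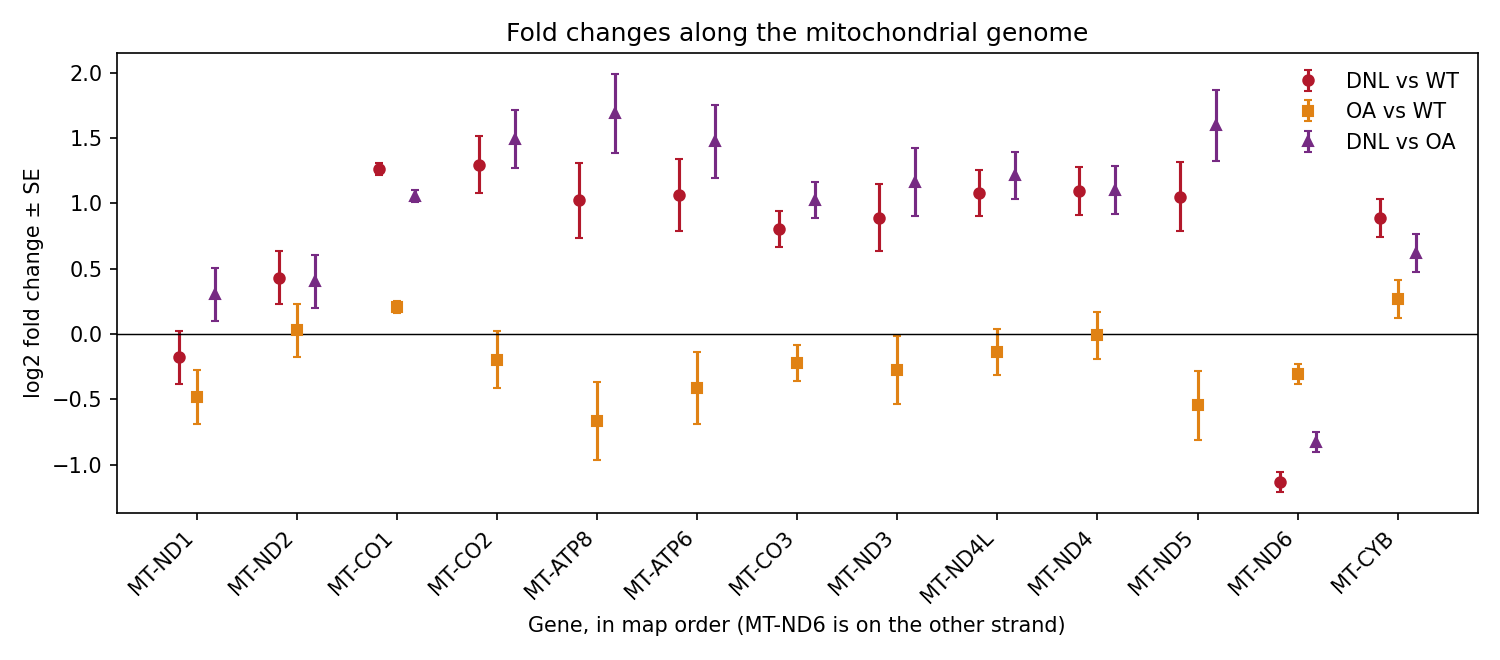
log2 fold change ± SE (edgeR fit of all 9 libraries) of the 13 mitochondrial genes in map order, for DNL against WT, OA against WT and DNL against OA. In DNL against WT the genes from MT-CO1 to MT-ND5 and MT-CYB sit between 0.80 and 1.30, MT-ND1 at -0.18, MT-ND2 at 0.43 and MT-ND6 at -1.14.

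The nuclear genes had small median differences, above 0 in DNL and below 0 in OA. Of 90 genes, 85 passed the filter on low counts. COX4I2, COX6A2 and COX8C, isoforms of the oxidase used in lung, heart, muscle or testis, had a count of 0 in all 9 libraries, and COX7A1 and COX7B2 had too few counts to test. In DNL against WT, 33 of 85 rose and 9 fell, beside 27.1% and 26.8% of all genes tested, with a median log2 fold change of 0.21 against -0.02 over all genes. In OA against WT, 8 rose and 33 fell, beside 30.4% and 29.7%, with a median of -0.21 against -0.03; without OA replicate 3 these were 7 and 30. In DNL against OA, 56 rose and 8 fell, beside 31.9% and 30.9%, with a median of 0.40 against 0.01; without OA replicate 3 these were 52 and 5.

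The count of nuclear calls depended on the scaling. With library totals in place of TMM, the median of all genes moved to -0.18 in DNL against WT and to -0.22 in DNL against OA, and the higher share of all calls fell to 32.2% in DNL against WT, against 50.3% with TMM. The nuclear members were then 18 higher and 17 lower in DNL against WT, and 33 higher and 16 lower in DNL against OA. Their median relative to that of all genes was 0.23 with TMM and 0.22 with library totals in DNL against WT. In OA against WT it was -0.18 under both.

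In complex I, 13 of 39 nuclear genes were called higher and 6 lower in DNL, and 3 higher and 13 lower in OA, each against WT. The 33.3% higher in DNL and 33.3% lower in OA lay near the 27.1% and 29.7% of all genes tested. NDUFA5, an accessory subunit of the peripheral arm, had 29.6, 26.5 and 28.0 CPM in DNL, 10.5, 12.9 and 7.84 CPM in OA and 14.5, 14 and 13.6 CPM in WT. The groups did not overlap. It rose by 1.00 ± 0.13 on the log2 scale in DNL against WT (SE; edgeR adjusted p = 2.57e-05). The change of -0.39 ± 0.14 in OA against WT (edgeR adjusted p = 0.0279) was lost in 7 alternatives, among them those without OA replicate 1 or 3 or WT replicate 1 or 2, at edgeR adjusted p-values of 0.0560 to 0.0805 without a library.

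NDUFB4, an accessory subunit of the membrane arm, had 48.3, 47.4 and 43.6 CPM in DNL, 30.2, 26.6 and 23.4 CPM in OA and 27.6, 24.0 and 24.2 CPM in WT. Only DNL stood apart, by 0.87 ± 0.09 against WT (log2, SE; edgeR adjusted p = 4.29e-06). NDUFB6, also of the membrane arm, had 16.2, 16.2 and 17.8 CPM in DNL, 12.7, 12.9 and 12.9 CPM in OA and 9.09, 7.96 and 10.7 CPM in WT. It rose in DNL (0.86 ± 0.12, edgeR adjusted p = 4.25e-05) and in OA (0.48 ± 0.12, edgeR adjusted p = 0.00410), each against WT. NDUFA1, a small subunit at the base of the membrane arm, rose in OA against WT by 0.63 ± 0.11 (edgeR adjusted p = 0.000262), with 16.2 ± 0.233 CPM in OA and 10.4 ± 1.15 CPM in WT (SD, n = 3).

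The nuclear catalytic core of complex I, which carries electrons by a flavin and iron-sulphur clusters, had no called rise in either model: of 7 nuclear core genes, 3 fell in DNL against WT and 3 in OA against WT (4 without OA replicate 3). Over all genes tested 27.1% rose and 26.8% fell in DNL, and 30.4% rose and 29.7% fell in OA. These 7 genes are too few to be read against such shares. NDUFV1, which binds NADH and the flavin, was lower by 0.23 in DNL on the log2 scale (edgeR adjusted p = 0.0204), a call lost without DNL replicate 2 or 3 or WT replicate 1 or 3 (edgeR adjusted p = 0.0608 to 0.0998). NDUFS7, which holds the last cluster before quinone, had 9.0, 9.23 and 6.18 CPM in OA against 16.1, 13.7 and 15.4 CPM in WT, a fall of 0.86 on the log2 scale (edgeR adjusted p = 0.000457).

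NDUFS1 carries the largest set of iron-sulphur clusters in the complex and was singled out after its values were seen. It had 128, 130 and 136 CPM in DNL, 91.4, 99.0 and 96.2 CPM in OA and 144, 147 and 144 CPM in WT. The groups did not overlap. It fell by 0.60 in OA against WT (edgeR adjusted p = 1.82e-07), while its difference of -0.14 in DNL (edgeR adjusted p = 0.0172) was lost when DNL replicate 1 or 2 or WT replicate 1 or 2 was left out (edgeR adjusted p = 0.0561 to 0.105).

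NDUFV3, an accessory subunit beside the flavin site, fell in both models. It had 26.9, 26.3 and 22.3 CPM in DNL, 12.7, 15.1 and 16.9 CPM in OA and 34.0, 34.5 and 38.4 CPM in WT, without overlap. The log2 fold change was -0.50 ± 0.10 in DNL (SE; edgeR adjusted p = 0.00126) and -1.27 ± 0.11 in OA (edgeR adjusted p = 6.05e-07), both against WT. NDUFA4L2, a hypoxia-inducible relative of NDUFA4, stayed at 0.739 to 1.08 CPM in DNL, 0 to 0.950 CPM in OA and 0.609 to 1.04 CPM in WT and did not pass in any comparison. NDUFC2-KCTD14, a readthrough product that shares exons with NDUFC2, was at 1.72, 0 and 0 CPM in DNL and 3.33 to 6.36 CPM in OA, and was called lower in DNL than in OA; its values depend on how the estimator split those reads.

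In complex II, which oxidises succinate and has no mitochondrial gene, 3 of 4 genes rose in DNL against WT and none passed in OA. Over all genes tested 27.1% rose in DNL, and 60.0% passed in OA in either direction. These 4 genes are too few to be read against such shares. SDHA, the flavoprotein, had 84.1, 63.4 and 74.0 CPM in DNL, 64.3, 58.7 and 49.99 CPM in OA and 49.2, 46.7 and 57.2 CPM in WT, and rose by 0.54 ± 0.12 in DNL against WT (log2, SE; edgeR adjusted p = 0.00253). SDHB, the iron-sulphur subunit, rose by 0.39 ± 0.07 (edgeR adjusted p = 0.000584) and SDHC, a membrane anchor, by 0.36 ± 0.07 (edgeR adjusted p = 0.00107). SDHD, the other anchor, averaged 72.0 ± 5.16 CPM in DNL, 72.2 ± 2.01 CPM in OA and 76.7 ± 3.88 CPM in WT (SD, n = 3), with overlapping groups.

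In complex III, 5 of 10 nuclear genes were higher and 1 lower in DNL, and none higher and 6 lower in OA, each against WT, beside 27.1% of all genes higher in DNL and 29.7% lower in OA. The core proteins moved apart in DNL. UQCRC2 had 292, 276 and 290 CPM in DNL, 142, 134 and 148 CPM in OA and 185, 167 and 178 CPM in WT. UQCRC1 had 139, 135 and 146 CPM in DNL, 127, 127 and 118 CPM in OA and 181, 176 and 171 CPM in WT. DNL lay above WT for UQCRC2 and below it for UQCRC1, and OA lay below WT for both.

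UQCRC2 changed by 0.69 ± 0.05 in DNL (log2, SE; edgeR adjusted p = 1.17e-07) and -0.33 ± 0.05 in OA (edgeR adjusted p = 0.000106). UQCRC1 changed by -0.33 ± 0.05 in DNL (edgeR adjusted p = 6.83e-05) and -0.51 ± 0.05 in OA (edgeR adjusted p = 1.34e-06), all against WT. UQCRQ, a small subunit that contacts cytochrome b, had 22, 19.8 and 20.9 CPM in DNL, 9.48, 8.70 and 7.24 CPM in OA and 14.7, 13.3 and 13.3 CPM in WT. It rose by 0.60 ± 0.11 in DNL (edgeR adjusted p = 0.000322) and fell by 0.69 in OA (edgeR adjusted p = 0.000176). CYC1, cytochrome c1, averaged 59.8 ± 4.85 CPM in DNL, 40.8 ± 5.08 CPM in OA and 46.6 ± 4.36 CPM in WT (SD, n = 3), and its rise of 0.37 in DNL (edgeR adjusted p = 0.00538) was lost with library totals (edgeR adjusted p = 0.0921).

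In complex IV, 6 of 13 tested nuclear genes were higher and 1 lower in DNL, and 3 higher and 6 lower in OA, each against WT, beside those same shares of all genes. Without OA replicate 3 the OA counts were 2 and 5. COX7A2, the isoform found in liver, had 51.9, 53.2 and 59.8 CPM in DNL, 43.9, 50.7 and 48.6 CPM in OA and 31.6, 34.5 and 32.1 CPM in WT. Both models lay above WT, by 0.75 ± 0.08 in DNL (log2, SE; edgeR adjusted p = 3.07e-06) and 0.55 ± 0.08 in OA (edgeR adjusted p = 4.85e-05). COX7A1, its heart and muscle counterpart, was at 0 in 8 of the 9 libraries and at 0.475 CPM in OA replicate 3. COX7A2L, a factor that joins complexes III and IV, averaged 66.0 ± 6.26 CPM in DNL, 57.4 ± 5.40 CPM in OA and 67.4 ± 4.0 CPM in WT (SD, n = 3), and its call in OA was lost without OA replicate 1 or 2 or WT replicate 1 (edgeR adjusted p = 0.0501 to 0.122).

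COX6B1, which bridges the monomers of the oxidase, rose in OA against WT by 0.47 ± 0.07 (log2, SE; edgeR adjusted p = 5.36e-05), with 49.4, 51.2 and 52.0 CPM in OA against 37.9, 35.8 and 36.1 CPM in WT. Its rise of 0.28 in DNL (edgeR adjusted p = 0.00334) was lost with library totals (edgeR adjusted p = 0.179). COX6B2, the testis isoform, was at 0.154 to 0.266 CPM in DNL, 0.428 to 1.31 CPM in OA and 0.414 to 0.711 CPM in WT, and its fall in DNL rested on those few counts: leaving out DNL replicate 1 or 3 or WT replicate 2 or 3 ended the call (edgeR adjusted p = 0.0759 to 0.107). COX6A1, the ubiquitous partner of the silent COX6A2, rose by 0.31 in DNL (edgeR adjusted p = 0.00441), lost with library totals (edgeR adjusted p = 0.114).

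COX4I1, the regulatory subunit that binds ATP, had 90.9, 86.6 and 68.1 CPM in DNL, 55.7, 57.8 and 56.4 CPM in OA and 74.6, 69.1 and 65.7 CPM in WT. OA lay below the other groups, by 0.30 against WT (edgeR adjusted p = 0.0165), a call lost without OA replicate 1 (edgeR adjusted p = 0.0538) or WT replicate 1 (edgeR adjusted p = 0.0713). NDUFA4 had 48.7, 44.2 and 55.1 CPM in DNL, 47.0, 49.6 and 49.0 CPM in OA and 43.1, 42.0 and 40.2 CPM in WT, above WT in both models, with calls lost when DNL replicate 3, OA replicate 2 or 3, or WT replicate 2 or 3 was left out (edgeR adjusted p = 0.0581 to 0.105); with library totals the DNL call was lost (edgeR adjusted p = 0.411). COX8A did not pass in any comparison, at 45.8 to 60.2 CPM in DNL, 59.0 to 63.8 CPM in OA and 53.5 to 60.2 CPM in WT. COX7C, a small membrane subunit, rose in DNL by 0.41 ± 0.08 (edgeR adjusted p = 0.000740).

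In complex V, 6 of 19 nuclear genes were higher and 1 lower in DNL, and 2 higher and 8 lower in OA, each against WT. The 31.6% higher in DNL lay near the 27.1% of all genes, and the 42.1% lower in OA stood beside 29.7% of all genes. Without OA replicate 3 the OA counts were 2 and 6. The lower share was then 31.6%, near the 28.4% of all genes. ATP5ME, a subunit of the membrane part of the enzyme, had the largest rise among called nuclear members in DNL, with 7.08, 7.85 and 7.06 CPM in DNL, 2.37, 4.84 and 3.92 CPM in OA and 3.08, 3.59 and 2.60 CPM in WT. It rose by 1.24 ± 0.23 against WT (log2, SE; edgeR adjusted p = 0.000598), and OA and WT overlapped. ATP5F1E, the epsilon subunit of the central stalk, had 130, 121 and 115 CPM in DNL, 72.4, 67.3 and 60.0 CPM in OA and 96.2, 80.7 and 81.3 CPM in WT. Its changes were 0.50 ± 0.08 in DNL (edgeR adjusted p = 0.000210) and -0.37 ± 0.08 in OA (edgeR adjusted p = 0.00237).

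ATP5F1A, the alpha subunit, had 335, 336 and 346 CPM in DNL, 287, 261 and 268 CPM in OA and 370, 367 and 368 CPM in WT. It fell by 0.44 in OA against WT (edgeR adjusted p = 8.24e-07), while its fall of 0.12 in DNL (edgeR adjusted p = 0.0208) was lost without DNL replicate 1 or 2 or WT replicate 1 or 3 (edgeR adjusted p = 0.0527 to 0.0947). The genes of the c-ring, which encode the same mature protein from 3 loci, differed among themselves. In OA against WT, ATP5MC1 changed by 0.43 ± 0.13 (edgeR adjusted p = 0.00956), ATP5MC2 by 0.22 ± 0.07 (edgeR adjusted p = 0.0150) and ATP5MC3 by -0.30 ± 0.05 (edgeR adjusted p = 0.000223). The ATP5MC2 call was lost without OA replicate 2 (edgeR adjusted p = 0.0926) or WT replicate 2 (edgeR adjusted p = 0.0697).

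ATP5MC1 had 14.8, 17.7 and 15.5 CPM in DNL, 24.0, 22.1 and 22 CPM in OA and 18.7, 13.5 and 18.2 CPM in WT, with OA above the rest. ATP5MC3 had 126, 124 and 137 CPM in DNL, 93.8, 88.9 and 88.2 CPM in OA and 114, 108 and 112 CPM in WT, with OA below the rest. Reads of near-identical copies may be divided by the estimator, which bears on ATP5MGL, UQCRHL and the readthrough ATP5MF-PTCD1 as well, and none of those 3 passed in any comparison.

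**Figure D4:**
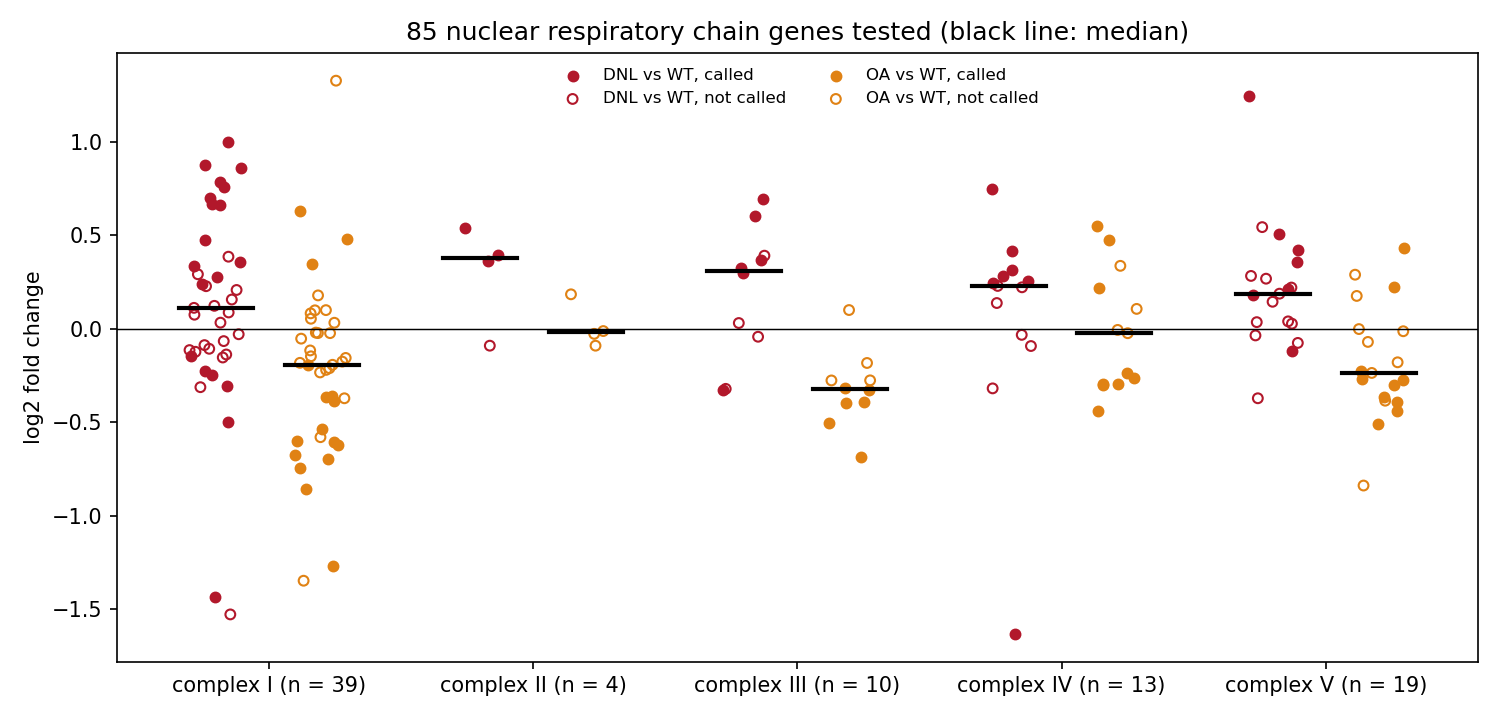
log2 fold changes of the 85 tested nuclear genes by complex, DNL against WT left and OA against WT right within each complex. Filled dots were called at an adjusted p under 0.05, open dots were not, and black lines are medians. In complexes I, III and V the DNL median (0.11, 0.31 and 0.19) lies above 0 and the OA median (-0.19, -0.32 and -0.24) below it. In complexes II and IV the DNL median (0.38 and 0.23) lies above 0 and the OA median (-0.02 in both) just below it.

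The DNL and OA comparisons share the WT libraries, so the members are set side by side. Higher in DNL and lower in OA were 11 of the 85 nuclear genes (12.9%, beside 6.67% of all genes tested; 9 without OA replicate 3): NDUFA5, NDUFA8 and NDUFA10 of complex I, UQCRC2, UQCRQ and UQCR10 of complex III, COX5A and COX7C of complex IV, and ATP5F1C, ATP5F1E and ATP5MC3 of complex V. Higher in both were NDUFB6, COX6B1, COX7A2 and NDUFA4. Lower in both were NDUFS1, NDUFV3, UQCRC1 and ATP5F1A. No gene was lower in DNL and higher in OA, beside 6.82% of all genes tested, and 21 of the 85 passed in neither. The genes higher in both and those lower in both were each 4.71% of the 85. Of the 13636 genes tested, 1678 (12.3%) were higher in both and 1641 were lower in both. Calls shared by both models were thus a smaller share of the nuclear genes than of all genes. Without OA replicate 3, 5 nuclear genes were lower in both (5.88%, beside 12.1% of all genes tested). Of the 11, 4 kept both calls under every alternative run: UQCRC2, UQCRQ, ATP5F1C and ATP5F1E. Among the genes named here, NDUFA8, NDUFA10, UQCR10, COX5A and ATP5F1C were named after their values were seen.

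ATP5F1C, the gamma subunit that turns inside the F1 head, had 167, 160 and 156 CPM in DNL, 96.2, 109 and 107 CPM in OA and 130, 128 and 121 CPM in WT. The groups did not overlap. The log2 fold change was 0.35 ± 0.05 in DNL (SE; edgeR adjusted p = 0.000109) and -0.28 ± 0.06 in OA (edgeR adjusted p = 0.000803). NDUFA8, UQCR10 and COX5A lay in the same order of groups, at 22.8, 42.3 and 58.0 CPM on average in DNL, 13, 25.4 and 40.2 CPM in OA and 18.8, 33.8 and 48.4 CPM in WT.

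**Figure D5:**
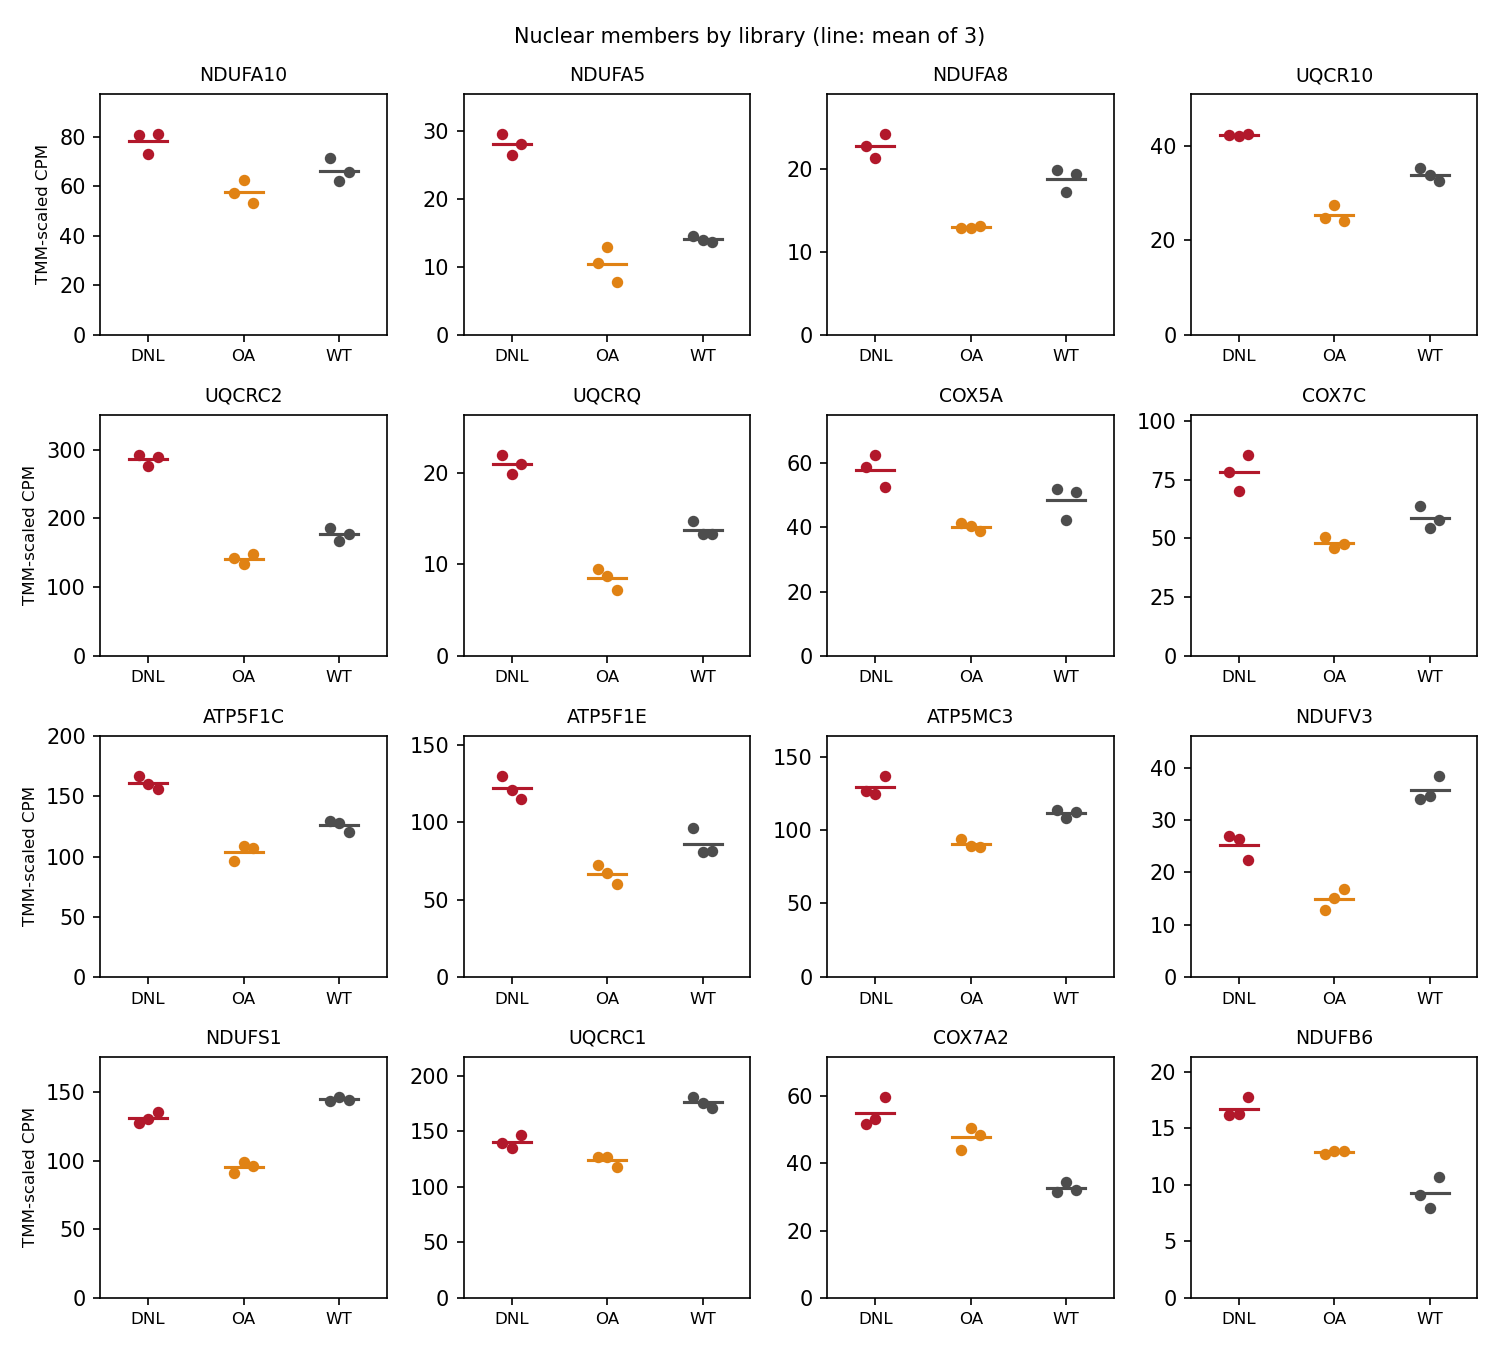
TMM-scaled CPM of 16 nuclear genes in DNL, OA and WT (dots: libraries; lines: means of 3). The first 11 were higher in DNL and lower in OA than in WT, for example UQCRC2 at 276 to 292 CPM in DNL, 134 to 148 CPM in OA and 167 to 185 CPM in WT; NDUFV3, NDUFS1 and UQCRC1 were lower, and COX7A2 and NDUFB6 higher, in both models.

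Promoters of nuclear respiratory genes are known for sites of NRF1 and of the ETS factor GABP. RefSeq promoter windows on GRCh38.p14, 250 bases before to 50 after a start, were found for 70 of the 90 nuclear genes, in 83 windows. The NRF1 core, GCGCA then any base then GCGC, read on either strand as were the other motifs, was in 17 windows (20.5%), against 5.78% of all 35116 windows. The ETS core CCGGAAG was in 26.5%, against 10.3%, and the cAMP response element TGACGTCA in 6.02%, against 1.85%. The hypoxia core ACGTG was in 24.1%, against 21.4%, and CCAAT in 33.7%, against 34.6%. The NRF1 core was in 8 of 34 windows of genes higher in DNL against WT and in 3 of 10 of genes lower. In OA against WT it was in 0 of 11 windows of genes higher and in 7 of 35 of genes lower. These splits by direction were not tested. A match is a description of the letters and not a bound site.

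The 250 bases before the start are shown for ATP5F1C, UQCRC1 and UQCRQ. Against WT, ATP5F1C and UQCRQ were higher in DNL and lower in OA, and UQCRC1 was lower in both. Capitals mark the NRF1 core in ATP5F1C (chr10:7787927-7788176, plus strand) and UQCRC1 (chr3:48609647-48609896, minus strand) and the ETS core in UQCRQ (chr5:132866392-132866641, plus strand).
ATP5F1C: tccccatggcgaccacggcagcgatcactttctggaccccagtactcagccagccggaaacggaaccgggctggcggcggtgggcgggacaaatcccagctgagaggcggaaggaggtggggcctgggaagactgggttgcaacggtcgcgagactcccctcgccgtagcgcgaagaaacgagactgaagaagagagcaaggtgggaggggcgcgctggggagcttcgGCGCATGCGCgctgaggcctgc
UQCRC1: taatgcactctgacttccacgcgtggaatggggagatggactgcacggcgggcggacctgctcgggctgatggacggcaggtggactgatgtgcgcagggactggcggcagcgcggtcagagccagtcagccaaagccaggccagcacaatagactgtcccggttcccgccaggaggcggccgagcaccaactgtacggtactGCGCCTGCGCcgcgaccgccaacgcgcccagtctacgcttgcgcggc
UQCRQ: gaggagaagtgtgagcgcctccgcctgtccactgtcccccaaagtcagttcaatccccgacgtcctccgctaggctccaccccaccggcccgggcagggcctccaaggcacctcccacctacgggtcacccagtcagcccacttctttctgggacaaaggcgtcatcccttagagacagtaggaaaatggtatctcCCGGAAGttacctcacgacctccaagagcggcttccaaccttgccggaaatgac
The NRF1 core thus stood before a gene higher in DNL, ATP5F1C, and before a gene lower in DNL, UQCRC1.

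The other lists are read against the shares of all genes tested, 27.1% higher and 26.8% lower in DNL and 30.4% higher and 29.7% lower in OA, each against WT. Of 9 tested regulators of nuclear respiratory genes, 1 was higher and 6 lower in DNL, and 1 higher and 2 lower in OA, each against WT, the 22.2% lower in OA being below the share of all genes. ESRRA, a nuclear receptor that drives respiratory genes, averaged 44.1 ± 2.26 CPM in DNL, 89.6 ± 5.16 CPM in OA and 114 ± 5.34 CPM in WT (SD, n = 3). Its log2 fold change was -1.37 in DNL (edgeR adjusted p = 1.53e-09) and -0.35 in OA (edgeR adjusted p = 0.000269). PPARGC1A, its coactivator, averaged 74.5 ± 1.40 CPM in DNL, 20.8 ± 0.583 CPM in OA and 125 ± 4.81 CPM in WT, and changed by -0.74 in DNL (edgeR adjusted p = 6.80e-08) and -2.58 in OA (edgeR adjusted p = 3.43e-12). The called rises were GABPA, of the ETS factor GABP, by 0.34 in DNL (edgeR adjusted p = 0.00562) and MYC by 0.30 in OA (edgeR adjusted p = 0.000308).

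Of 15 genes that copy and transcribe mitochondrial DNA, 2 were higher and 4 lower in DNL, and 1 higher and 7 lower in OA (5 without OA replicate 3), each against WT. The 26.7% lower in DNL lay at the share of all genes. POLRMT, the mitochondrial RNA polymerase, averaged 73.6 ± 3.10 CPM in DNL, 130 ± 4.04 CPM in OA and 132 ± 6.48 CPM in WT (SD, n = 3), a change of -0.85 in DNL (edgeR adjusted p = 2.94e-08). TFAM, which opens the mitochondrial promoters, rose by 0.16 in DNL (edgeR adjusted p = 0.00611), which turned to -0.01 with library totals (edgeR adjusted p = 0.858). TFB1M, which methylates the small mitochondrial ribosomal RNA, fell by 1.29 in OA against WT (edgeR adjusted p = 7.67e-09).

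Of 19 genes of mitochondrial RNA processing and stability, 2 rose and 9 fell in DNL, and 5 rose and 7 fell in OA (4 and 6 without OA replicate 3), each against WT. FASTKD5, which matures messengers not flanked by transfer RNAs, averaged 68.9 ± 0.718 CPM in DNL, 151 ± 4.21 CPM in OA and 103 ± 4.21 CPM in WT (SD, n = 3). It fell by 0.59 in DNL (edgeR adjusted p = 3.62e-07) and rose by 0.54 in OA (edgeR adjusted p = 5.24e-07). PNPT1, the nuclease of the mitochondrial degradosome, averaged 9.87 ± 0.553 CPM in DNL, 6.83 ± 2.08 CPM in OA and 16.0 ± 1.59 CPM in WT, and changed by -0.70 in DNL (edgeR adjusted p = 0.00316) and -1.25 in OA (edgeR adjusted p = 4.57e-05). LRPPRC, which stabilises mitochondrial messengers and was named after its values were seen, changed by -0.94 in DNL (edgeR adjusted p = 4.92e-05). The rises in DNL were TRMT10C by 0.35 (edgeR adjusted p = 0.00107) and TBRG4 by 0.21 (edgeR adjusted p = 0.0122).

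Of 77 tested mitochondrial ribosomal protein genes, 9 rose and 25 fell in DNL, and 4 rose and 37 fell in OA (34 without OA replicate 3), each against WT. The lower shares were 32.5% in DNL and 48.1% in OA. MRPL30 of the large subunit changed by -1.13 in OA (edgeR adjusted p = 4.51e-09) and MRPS18B of the small subunit by -0.74 in DNL (edgeR adjusted p = 6.31e-07). Among the rises, MRPL36 changed by 0.79 in DNL (edgeR adjusted p = 0.000188) and MRPL44 by 0.33 in OA (edgeR adjusted p = 0.000166). Complex IV assembly factors were 5 higher and 7 lower of 23 in DNL and 1 higher and 15 lower in OA (3 and 13 without OA replicate 3). COX19, a copper-handling factor, changed by -0.97 in DNL (edgeR adjusted p = 2.27e-07) and -1.32 in OA (edgeR adjusted p = 1.45e-08). COX20 and COA3 of the same list rose in DNL, by 0.72 and 0.62 (edgeR adjusted p = 7.85e-06 and 0.000250). Complex I assembly factors were 0 higher and 5 lower of 17 in DNL and 2 higher and 7 lower in OA (6 lower without OA replicate 3).

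Among 13 tricarboxylic acid cycle genes, 3 rose and 3 fell in DNL, 23.1% each way and below the shares of all genes, and 1 rose and 6 fell in OA (4 fell without OA replicate 3). CS, citrate synthase, averaged 459 ± 9.62 CPM in DNL, 290 ± 5.34 CPM in OA and 248 ± 5.08 CPM in WT (SD, n = 3), a rise of 0.89 in DNL (edgeR adjusted p = 4.77e-10). Among the falls in DNL, DLD changed by -0.49 (edgeR adjusted p = 5.76e-05) and IDH3A by -0.81 (edgeR adjusted p = 0.000925). Of 8 tested hypoxia targets that act on mitochondria, 3 rose and 2 fell in DNL and 1 rose and 6 fell in OA. BNIP3L, a mitophagy receptor, rose by 2.0 in DNL (edgeR adjusted p = 1.30e-11), and PDK1, which switches off pyruvate dehydrogenase, by 1.09 (edgeR adjusted p = 3.99e-09). LONP1 and ISCU fell in DNL, with changes of -0.64 and -0.68 (edgeR adjusted p = 1.91e-06 and 1.21e-05). In OA against WT, BNIP3L changed by 0.40 (edgeR adjusted p = 4.06e-05), PDK1 by -1.15 (edgeR adjusted p = 4.75e-09) and LONP1 by -1.05 (edgeR adjusted p = 1.86e-08). ATP5IF1, the inhibitor of ATP synthase, averaged 16.6 ± 0.567 CPM in DNL, 11.5 ± 0.425 CPM in OA and 10.0 ± 0.193 CPM in WT and rose by 0.73 in DNL (edgeR adjusted p = 2.53e-05).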

How the data were processed

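Total RNA of 9 HepG2 samples was sequenced from ribosome-depleted stranded libraries, per the labels' protocols. The deposited estimated counts per gene were made by the authors with kallisto 0.48.0 after FastQC 0.11.9 on GRCh38, per the submitters' processing notes; the sources used here do not give the annotation release or strand setting. Counts were rounded, filtered with filterByExpr, scaled by TMM and tested with edgeR 4.0.16 (robust quasi-likelihood, R 4.3.3) in a fit of all 9 samples. P-values were adjusted over 13636 genes, with a call under 0.05. CPM are TMM-scaled, and the upper limit behind a value of 0, 3 counts, was 0.0691 to 0.356 CPM per library (counting error only). Sums and shares of counts were compared by exact permutation over samples. Alternatives used DESeq2 1.42.0, limma 3.58.1, other scalings, no filter, a replicate block and left-out libraries. The procedure was tested on simulated counts.

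The members and lists were chosen with earlier results of these data known. Named genes were the mitochondrial members, isoforms, SDHA to SDHD and CYC1, the 2 largest rises and falls per complex and comparison with at least 5 CPM, and the 2 smallest adjusted p-values per direction of each other list; others are marked. Nothing in the labels ties a replicate to its own culture. The p-values therefore rest on sample-to-sample spread that may be technical. Replicates differed beyond sampling noise (chi-square per degree of freedom 5.44 to 16.6). A protocol text shared by all samples repeats the DNL recipe; groups follow the sample-level labels. No protein table was used here. Results for 1 member picked out by the naming rule are not reported here.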

Additional observations from a re-analysis of the deposited data

How the results depend on the processing

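With library totals, nuclear members were 18 higher and 17 lower in DNL against WT and 33 higher and 16 lower in DNL against OA; the log2 fold changes of ATP5F1B (-0.0431), COX7A2 (-0.0310), NDUFA4 (-0.21), SDHD (-0.23) and UQCRC1 (-0.0564) in DNL against OA and of TFAM (-0.0103) in DNL against WT turned negative. In OA against WT, mitochondrial members higher were 2 with only the groups compared and 2 with the replicate block, and those lower were 3 with DESeq2, 3 with only the groups compared and 6 with the replicate block. Nuclear members lower in DNL against OA were 5 with only the groups compared. The samples share only a number, which did not pair them over all genes. The mitochondrial genes did follow it: replicate 1 was highest for 12 of 13 in DNL, 10 in OA and 13 in WT. The main fit has no block and leaves this order in its spread. The log2 ratio of mitochondrial to nuclear counts was 0.47 (DNL against WT), 0.23 (OA against WT) and 0.24 (DNL against OA, overlapping groups) over member medians, and 0.70 and 0.0560 (DNL and OA against WT) without MT-CO1. The nuclear share differed by 0.00535 percentage points (DNL against WT) and 0.0497 (DNL against OA) when mitochondrial counts were left out of the total. The cause of these changes was not tested.

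Leaving out 1 library gave 6 to 11 mitochondrial members higher in DNL against WT (6 without WT replicate 2 or 3), 1 to 2 higher and 1 to 3 lower in OA against WT, and 5 to 10 nuclear members lower in DNL against OA (5 without OA replicate 2 or 3). Nuclear members numbered 26 to 39 higher and 6 to 10 lower in DNL against WT, and 6 to 9 higher and 25 to 33 lower in OA against WT. The log2 ratio ranged over 0.82 to 0.99 (DNL against WT), 0.16 to 0.29 (OA against WT) and 0.58 to 0.75 (DNL against OA). Of 7037 values for single genes under an alternative, 6650 kept direction and side of the threshold, 266 lost the call, 115 gained one and 6 turned direction. No batch is given by the labels.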

Other observations

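Mitochondrial transcripts varied between libraries more than nuclear ones did in DNL and WT, but not in OA. In DNL the coefficient of variation had a median of 22.6% over the 13 mitochondrial genes and 7.50% over the 85 tested nuclear genes; in OA these were 8.83% and 8.93%, and in WT 14.8% and 7.44%. MT-CO1 was steadier, at 3.79% in DNL, 1.27% in OA and 6.21% in WT, whereas MT-ATP8 reached 38.3% in DNL.

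Within every group 1 library was highest for most mitochondrial genes: replicate 1 was highest for 12 of 13 genes in DNL, 10 in OA and 13 in WT. Replicate 3 was lowest for 13 genes in DNL, 12 in OA and 13 in WT. Replicate numbers did not pair the samples over all genes, with correlations of deviations from -0.0212 to 0.106. The source of this shared order of libraries was not tested.

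Assembly factors of complex II were 2 higher and 1 lower of 4 in DNL against WT and 1 higher and 3 lower in OA against WT (none higher without OA replicate 3), beside 27.1% of all genes higher and 26.8% lower in DNL and 30.4% and 29.7% in OA; a list of 4 genes cannot be read against such shares. SDHAF4, a chaperone of flavinated SDHA, averaged 4.83 ± 0.421 CPM in DNL, 1.15 ± 0.142 CPM in OA and 5.25 ± 0.223 CPM in WT (SD, n = 3), a log2 fold change of -2.20 in OA (edgeR adjusted p = 1.03e-06). SDHA itself averaged 73.8 CPM in DNL, 57.6 CPM in OA and 51.0 CPM in WT. POLG, the mitochondrial DNA polymerase, averaged 17.9 ± 2.04 CPM in DNL, 50.3 ± 3.13 CPM in OA and 25.9 ± 2.99 CPM in WT, and rose by 0.95 in OA against WT (edgeR adjusted p = 3.51e-06).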
